A study of Mus musculus with 2 samples.

Results

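The very long synaptic and adhesion genes described here are 9 of 40276 features, taken by symbol: Cntnap2, Lsamp, Csmd1, Csmd3, Nrxn3, Dlg2, Lrp1b, Ptprd and Macrod2. All 9 were in the feature list, and each spans more than 1 Mb of genome. They were read in a 5 µm section of normal mouse brain and in one of normal mouse heart, both formalin-fixed and paraffin-embedded (FFPE), in which total RNA was copied in place by spRandom-seq, a method that primes at random, and assigned to barcoded spots. The primer of the reverse transcription lacked cell barcode 2 in both samples, and the labels give no strain, age or sex. Each tissue is 1 section and 1 library (n = 1 per tissue), so there is no spread between replicates and no p-value. Every interval below is a 95% interval for counting error only, and it takes each count as a separate molecule. A spot can hold several cells, and fewer cells of a type cannot be told apart from less RNA per cell.

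The genes share a very long span and, with 1 exception, a place at the neuronal membrane. Long neuronal genes of this kind consist mostly of intron, take hours to transcribe, and are read in nuclei as unspliced RNA as well as in the cytoplasm as message. Neurexins and their relatives hold the presynaptic membrane and the axon to partners on other cells, IgLON proteins are small adhesion molecules with a lipid anchor, and scaffold proteins hold receptors at the postsynaptic density. Olfactory receptor genes, which are used in the sensory neurons of the nose, served as the measure of background, since neither tissue is known for using them as a class.

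Cntnap2 (ENSMUSG00000039419, chromosome 6, span 2245 kb) encodes Caspr2, a neurexin relative that gathers potassium channels beside the nodes of myelinated axons. Nrxn3 (ENSMUSG00000066392, chromosome 12, 1612 kb) encodes the presynaptic adhesion molecule neurexin 3. Lsamp (ENSMUSG00000061080, chromosome 16, 2197 kb) encodes an IgLON of the limbic system. Ptprd (ENSMUSG00000028399, chromosome 4, 2271 kb) encodes a receptor tyrosine phosphatase that organises presynaptic endings, and Dlg2 (ENSMUSG00000052572, chromosome 7, 1973 kb) the postsynaptic scaffold PSD-93. Csmd1 (ENSMUSG00000060924, chromosome 8, 1643 kb) and Csmd3 (ENSMUSG00000022311, chromosome 15, 1211 kb) encode large membrane proteins with CUB and sushi domains, and Lrp1b (ENSMUSG00000049252, chromosome 2, 2058 kb) a giant receptor of the LDL receptor family. Macrod2 (ENSMUSG00000068205, chromosome 2, 1998 kb) is the exception in kind, an intracellular enzyme that removes ADP-ribose from proteins. Annotated exons cover 0.457% (Cntnap2) to 1.39% (Csmd3) of the span. Spans and exons were taken by gene ID from GENCODE mouse release 21 on GRCm38. The deposited files use mm39, so no coordinates of the files are given.

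The listed start regions do not look alike in CG content, also among starts of the same gene. RefSeq's promoter windows on GRCm38.p6 held 5 of the 9 genes, and the 250 bases before the most upstream listed start are shown for 3 that lie far apart in CG content, with each CG pair in capitals. These are Lsamp at chr16:39984114-39984363, Dlg2 at chr7:91090536-91090785 and Macrod2 at chr2:140395180-140395429, all on the plus strand.
Lsamp: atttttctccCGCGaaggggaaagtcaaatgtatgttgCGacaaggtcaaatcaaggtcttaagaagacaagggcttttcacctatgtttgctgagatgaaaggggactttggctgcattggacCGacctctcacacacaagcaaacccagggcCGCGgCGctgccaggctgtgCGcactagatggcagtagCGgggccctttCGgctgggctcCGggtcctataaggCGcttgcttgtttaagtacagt
Dlg2: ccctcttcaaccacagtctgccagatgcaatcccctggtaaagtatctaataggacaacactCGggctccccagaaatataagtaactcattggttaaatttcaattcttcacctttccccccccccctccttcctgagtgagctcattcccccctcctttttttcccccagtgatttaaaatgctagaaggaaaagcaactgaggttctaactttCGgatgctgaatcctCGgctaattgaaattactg
Macrod2: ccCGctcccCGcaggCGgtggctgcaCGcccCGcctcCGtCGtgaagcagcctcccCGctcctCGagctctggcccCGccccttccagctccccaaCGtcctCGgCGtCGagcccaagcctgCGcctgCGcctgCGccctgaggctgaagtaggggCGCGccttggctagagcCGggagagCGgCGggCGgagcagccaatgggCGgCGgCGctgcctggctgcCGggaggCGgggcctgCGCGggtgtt
The Macrod2 window held 30 CG pairs, a number reached by 5.95% of 32817 windows of the same length over all genes (median 6 pairs). The Lsamp window held 12, reached by 33.5% of windows, and the Dlg2 window 3, reached by 70.9%. A further listed start of Lsamp, not shown, also held 3. No readout in the files bears on these windows, and they are given to show the sequence at which the transcripts start.

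Spots with at least 500 counts and 200 features numbered 4080 (brain, 37143546 counts) and 3726 (heart, 44613867 counts). Levels are in CPM, which scales each count by its section's total over these spots. The 2 files list the same 4992 barcodes. The tissues carried their own defining genes: the sum of 10 sarcomere genes was 24020 CPM in heart beside 48.2 in brain, and that of 16 pan-neuronal genes 4585 CPM in brain beside 194 in heart. Ribosomal RNA took 31.1% of brain counts and 48.5% of heart counts, and the log2 ratio (brain over heart) had a median of 0.43 over the 11925 features whose 2 sections averaged 5 CPM or more.

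All 9 genes were higher in the brain section than in the heart section. Together they made up 1.504% of all brain counts (558727 counts, 15042 CPM) and 0.208% of heart counts (92588 counts, 2075 CPM). Of the 9, 8 passed the size rule in brain, a difference of 4-fold or more with a level of 20 CPM or more, a rule that 17.2% of 6345 features passed in that direction, and none of the 9 passed it in heart, where 5.41% did. The median log2 ratio of the 9 was 2.81. Macrod2 was the gene below 4-fold. With ribosomal, mitochondrial and small structured RNA left out of the totals Csmd3 fell below it as well, at a log2 ratio of 1.79, and 7 of the 9 passed. The share of all features that passed was not taken on those totals.

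Among the adhesion molecules of the neurexin group, Cntnap2 had 1330 CPM in brain (interval 1319 to 1342) and 207 in heart (203 to 211), a ratio of 6.42 (6.28 to 6.57). Nrxn3 had 1906 CPM in brain and 269 CPM in heart, 7.09-fold less (6.96 to 7.23). Lsamp had the highest brain level of the 9, 2676 CPM, and 293 CPM in heart, which is 9.13-fold (8.96 to 9.30). Only 3 protein-coding genes of 21720 with a known span had more brain counts than Lsamp. Ptprd stood at 2234 CPM in brain and 259 in the heart section, an 8.64-fold difference (8.48 to 8.81). The scaffold gene Dlg2 stood at 2118 and 301, a 7.03-fold difference (6.90 to 7.16).

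Of the CUB and sushi genes, Csmd1 had 1935 CPM in brain and 188 in heart, the highest ratio of the 9 at 10.3 (10.1 to 10.5). Csmd3 had the lowest level of the 9 in both sections, 574 CPM in brain and 113 in heart, with a ratio of 5.09 (4.94 to 5.25). Lrp1b had 1411 CPM in brain, between the levels of Csmd1 and Csmd3, and 205 in heart, above both, with a ratio of 6.89 (6.74 to 7.05). Macrod2, the enzyme, had 858 CPM in brain and 241 in heart, the lowest ratio at 3.55 (3.48 to 3.63). No interval of a heart level reached that of the same gene in brain.

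**Figure D1:**
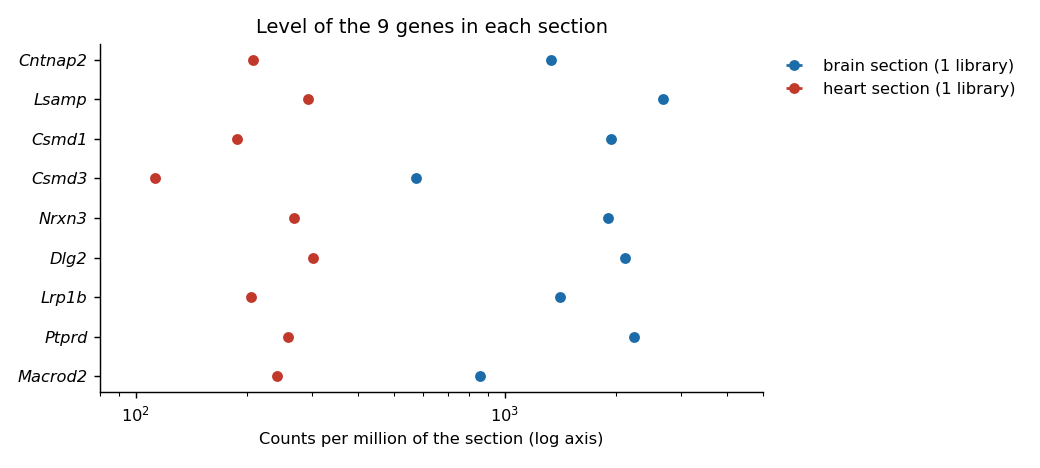
Level of each of the 9 genes in CPM (log axis) in the brain section (blue) and the heart section (red), 1 library each, with 95% counting intervals that are narrower than most points. Brain levels run from 574 to 2676 and heart levels from 113 to 301, with no overlap between the sections.

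By CPM the 9 ranked high in heart too. Dlg2 ranked 91st and Lsamp 96th of 21720 protein-coding genes there, and all 9 lay within the top 2.13%. Set against length the order was another. Olfactory receptor genes, summed over the 1191 of 1192 with a known span, gave 2.33 counts per kb of span in brain and 3.96 in heart, and 59 and 28 of them had no count. In heart the 9 genes gave 1.04 times (Cntnap2, interval 1.01 to 1.06) to 1.88 times (Nrxn3, 1.84 to 1.92) this receptor density. Ranked by counts per kb of span, the same genes fell between the top 49.7% (Nrxn3) and the top 76.1% (Cntnap2) of protein-coding genes.

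In brain every one of the 9 stood well above the receptor density. Lsamp reached 19.4 times (19.1 to 19.7), Nrxn3 18.9 times, Csmd1 18.8 times, Dlg2 17.1 times and Ptprd 15.7 times. Lrp1b (10.9), Cntnap2 (9.45), Csmd3 (7.55) and Macrod2 (6.85, 6.72 to 6.98) formed a lower group. By counts per kb of span the 9 fell between the top 10.6% (Lsamp) and the top 33.5% (Macrod2) of protein-coding genes in brain. Features with a known span and a mean of at least 5 CPM had a median brain density of 7.77 times, above Csmd3 and Macrod2. Summed over the 9, the density was 13.9 times that of receptors in brain (13.7 to 14.1) and 1.36 times in heart (1.34 to 1.38). A background of the receptor density over the whole span would thus equal 7.17% of the members' brain counts and 73.6% of their heart counts.

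The share of the heart counts that such a background would equal varied from gene to gene. At the receptor density, background alone would equal 96.3% of the heart counts of Cntnap2, 95.5% of those of Csmd3 and 89.3% of those of Lrp1b. For Dlg2 and Nrxn3 the shares were 58.2% and 53.3%, which leaves 126 CPM of each above the background, and for Lsamp 66.6%, which leaves 97.9 CPM. With that background taken from both sections the ratios of brain over heart became 14.4 for Nrxn3, 15.8 for Dlg2, 25.9 for Lsamp, 11.4 for Macrod2 and 154 for Cntnap2. The Cntnap2 and Csmd3 values rest on remainders of 7.70 and 5.08 CPM in heart. The choice of background moves them: against the median of the single receptor genes, which was added once values were known, Cntnap2 stood at 1.19 and Csmd3 at 1.20 in heart, and Nrxn3 at 2.15.

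**Figure D2:**
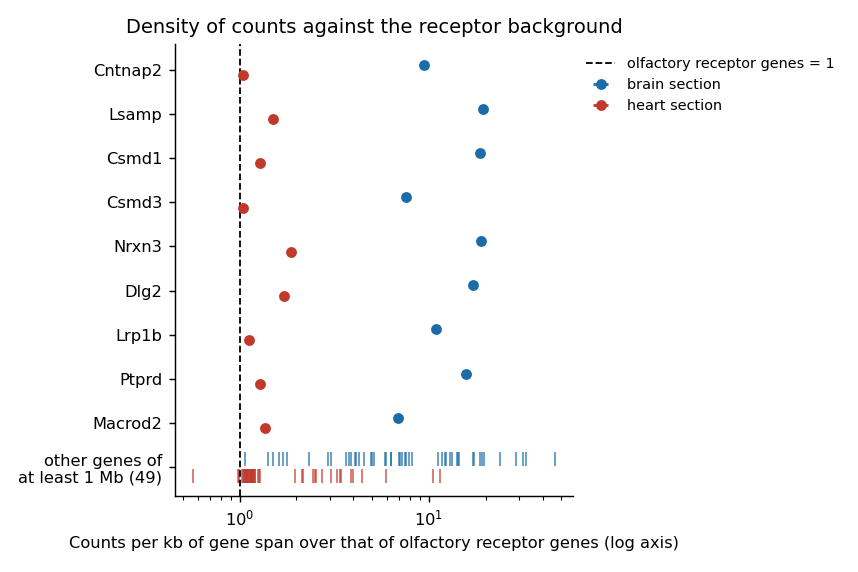
Counts per kb of gene span divided by the same for olfactory receptor genes (log axis), for the 9 genes in brain (blue) and heart (red), with 95% counting intervals. The bottom row gives the 49 other protein-coding genes of at least 1 Mb as ticks, and the dashed line is the receptor density. Heart points lie between 1.04 and 1.88 and brain points between 6.85 and 19.4.

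Other genes of the same length included some with a high density in heart. Of 49 other protein-coding genes of at least 1 Mb, all 49 had at least 20 CPM in each section, and 33 lay under 2 times the receptor density in heart against 6 in brain. Of 11763 features with a known span and a mean of at least 5 CPM, 3569 lay under 2 times in heart and 1796 in brain. The same numbers are the background for such counts in the lists below. Zfhx3, a transcription factor, stood at 11.5 times the receptor density in heart and 1043 CPM, and Dmd, which encodes dystrophin, the link from the muscle cytoskeleton to the matrix, at 10.6 times and 2120 CPM. Pde4d, a phosphodiesterase that breaks down cyclic AMP, stood at 5.98 times, Ctnna3, the alpha-catenin of heart muscle junctions, at 4.46 times. Naaladl2 followed with 479 CPM in heart and 1223 in brain. Ctnna3 was 0.268 times as high in brain as in heart by CPM, the reverse of the 9 genes. The median heart density of the 49 was 1.18, beside 1.29 for the 9, and their median brain density was 7.04, beside 15.7. The lowest in heart was Cdh12 at 0.568.

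Longer genes reached the floor of 20 CPM more often. In heart 3.30% of 6605 other protein-coding genes under 10 kb had at least 20 CPM, 16.9% of those from 10 to 100 kb, 76.0% of those from 100 kb to 1 Mb and all 49 of at least 1 Mb. Of the genes from 100 kb to 1 Mb, 609 had at least 20 CPM at less than 2 times the receptor density, a pairing that the 20 CPM floor does not allow for shorter genes. The median heart density in the same order of length was 1.47, 2.35, 2.06 and 1.18, and in brain it was 1.80, 4.25, 5.18 and 7.04.

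**Figure D3:**
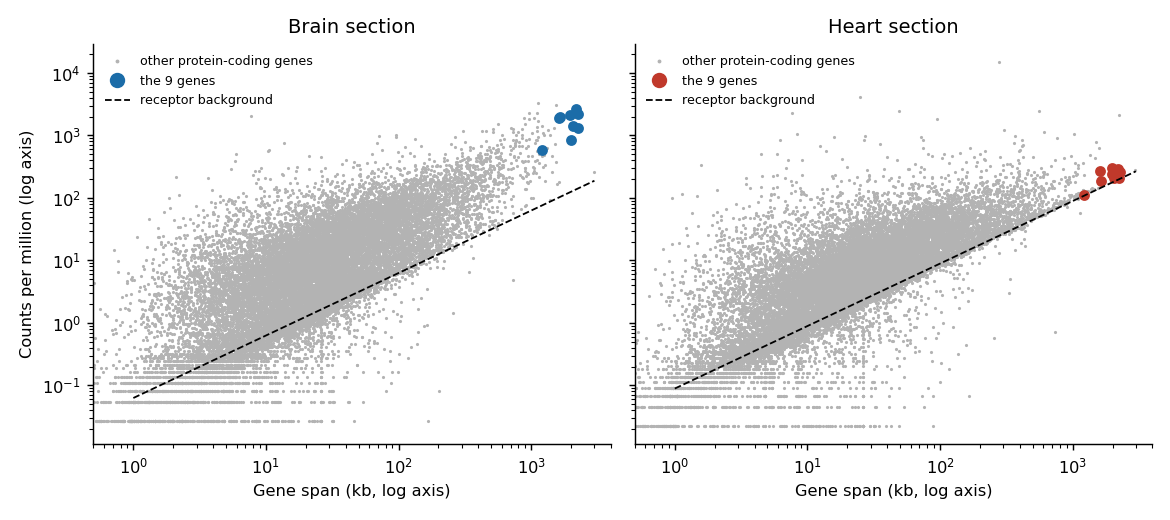
Level in CPM against gene span in kb (both log axes) for protein-coding genes with counts in brain (left) and heart (right). The dashed line is the level that the receptor density gives at each span. The 9 genes (large points) lie above the line in brain and close to it in heart, at 113 to 301 CPM.

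Families of the 9 genes followed the same order with few exceptions. Of 21 relatives by family, 10 passed the size rule in brain and none in heart, and their log2 ratios had a median of 2.05. The IgLON gene Opcml, at 1699 and 113 CPM, was 15.1-fold higher in brain. The IgLON genes Ntm and Negr1 were 8.41 and 7.17 times as high in brain. The 2 relatives with a lower level in brain were Macrod1, which lies in mitochondria and had 51.0 CPM in heart and 17.8 in brain, and Lrp2 with 16.9 and 11.9. In heart 14 of the 21 relatives lay under 2 times the receptor density, and Lrp1, a lipoprotein receptor of many tissues, stood highest at 11.8 times.

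Binding partners and other adhesion molecules of synapses were mostly higher in brain too, 43 of 44 by CPM. Of the 44 genes 31 passed the rule in brain and none in heart. Their log2 ratios had a median of 3.03, and 36 lay under 2 times the receptor density in heart against none in brain. Among all features with a known span and a mean of at least 5 CPM, 3569 of 11763 did so in heart and 1796 in brain. Cadm2, a synaptic cell adhesion molecule, had 1848 CPM in brain and 112 in heart (ratio 16.5), and Nlgn1, the postsynaptic neuroligin that binds neurexins, 1504 and 84.7 (ratio 17.7). Lrrtm4, another postsynaptic neurexin ligand, had 1151 and 75.9, and the teneurin Tenm2 1107 and 127. Il1rapl1, a ligand of Ptprd, had 1016 and 137 CPM, and Cntn5, a contactin, 494 and 127, the ratio of 3.88 being below the rule. Il1rapl1, Il1rapl2, Tenm2 and Cntn5 led the heart levels, all of them genes with a heart density near that of receptors.

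Genes of the pan-neuronal list had a larger median ratio than the 9. All 16 pan-neuronal genes passed the rule in brain, with a median log2 ratio of 4.44 and a median span of 39.95 kb. Not all were compact, since spans ran from 5.20 kb (Thy1) to 513 kb (Syt1). Rbfox3, with a span of 422 kb, had a ratio of 9.60, below that of Csmd1. Snap25, a protein of vesicle fusion with a span of 69.0 kb, had 753 CPM in brain and 6.23 in heart, a 121-fold difference. Its density in brain was 174 times that of receptors, above any of the 9, while in heart it stood among the 13 of 16 under 2 times. The heart densities of the 16 had a median of 1.28, beside 1.29 for the 9. Of 11 genes listed for cardiac neurons and nerve glia, 9 lay under 2 times the receptor density in heart, and their sum was 44.2 CPM. Prph, an intermediate filament of peripheral neurons, had 0.291 CPM there, while the glial cadherin Cdh19 stood at 3.02 times the receptor density. The part of such cells in the heart counts of the 9 was not tested.

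Genes that lie inside the 9 on the opposite strand did not share their brain level. Together 8 such features, 177 kb long in sum, lay at 2.49 times the receptor density in brain (2.33 to 2.65) and 1.07 times in heart (0.998 to 1.16). They lay inside Lsamp, Csmd1, Dlg2, Ptprd and Macrod2 only. The brain densities of those genes were 19.4, 18.8, 17.1, 15.7 and 6.85 times. The highest was the set of 3 features inside Macrod2 at 3.53 times in brain, with 681 of the 1026 brain counts. Whether counting used strand is not given in the sources used here.

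Per spot the brain counts were spread widely. After each spot was thinned to 2000 counts, 3358 brain spots and 3049 heart spots remained, and 722 and 677 were too shallow. The summed 9 genes then had a median of 26 counts per brain spot (lowest 4, highest 62) and 4 per heart spot (lowest 0, highest 21). All 3358 brain spots held at least 1 of these counts, and 96.3% of heart spots did. The most widespread gene in brain was Lsamp, found in 95.2% of brain spots and 41.6% of heart spots, and in heart it was Dlg2, found in 90.5% and 46.3%. Csmd3 was the least widespread in both, in 62.4% and 19.2%. The summed receptor genes, as background, were found in 58.8% of brain spots and 68.1% of heart spots. Without thinning Lsamp was found in 97.5% and 76.8%, and receptors in 83.7% and 90.6%, at median depths of 5981 and 9050 counts (9049.5 before rounding).

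Counts of the 9 varied more among brain spots than counting alone gives. The variance of the thinned count over its mean, which is about 1 for random counting, was 2.54 for Ptprd, 2.49 for Lsamp, 2.15 for Dlg2 and 1.95 for Csmd1 in brain. Macrod2 (1.19) and Csmd3 (1.30) had the lowest values, beside 1.26 for the summed receptors. They also had the lowest mean thinned counts of the 9, 1.57 and 1.10. In heart the values of single genes ran from 1.10 (Csmd3) to 1.35 (Lrp1b), with 1.61 for the summed receptors. Mean thinned counts of single genes were only 0.223 (Csmd3) to 0.656 (Dlg2) there. The summed 9 genes stood at 3.32 in brain and 2.18 in heart. Their mean thinned counts were 26.95 and 4.24, beside 0.974 and 1.41 for the summed receptors. At the same relative spread this measure rises with the mean count. These values therefore do not rank genes or sections by how much their level varied. The density of the 9 over receptors was higher in deeper brain spots. Over 4 equal sets of spots from shallow to deep it was 8.07, 10.9, 14.0 and 15.1 times, whereas in heart it lay between 1.22 and 1.39. In the same brain sets the 9 had 12230, 11910, 13710 and 16300 CPM, and receptors 682, 494, 440 and 487 CPM.

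Where in the brain section each gene was high was read over 9 groups of spots, formed from other genes and called regions, since spot positions were not used here. All listed genes were left out of the grouping. Regions are named by number and leading genes. The summed 9 genes ran from 8638 CPM (8491 to 8787) in region 6 (328 spots, led by Ptgds, Thbd and Fmod, genes of meninges and matrix) to 17650 (17560 to 17740) in region 7 (189 spots, led by Pcdh20, Olfml2b and Hpca) and 17590 in region 1 (982 spots, led by Pdzrn3, Mef2c and Hs3st2). Region 6 also had the highest receptor level, 1090 CPM, so that the 9 stood at 3.56 times the receptor density there (3.39 to 3.75). Lsamp had its lowest level there, 1362 CPM, 0.498 times the rest. This lies just past the 2-fold limit for a call of lower, which 7.5% of all features met there. In region 5, led by the myelin genes Mobp, Tmem88b and Mal, the sum was 10820 CPM and 8.54 times. In region 8, with the striatal genes Penk and Drd2 among its leading genes, it was 15310 CPM and 18.2 times.

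Ptprd and Lsamp were high in different regions. Ptprd had 3968 CPM in region 1 (3933 to 4004), 2.86 times the rest of the section, and was the 1 member called higher there by at least 2-fold and 20 CPM, beside 1.75% of all features. In region 7 it had 1173 CPM, the lowest of the 9 regions and 0.464 times the rest, a call of lower shared by 6.58% of features. Lsamp ran the other way, with 1983 CPM in region 1 and its highest level, 4376 CPM, in region 7. Of 189 spots of region 7, 187 lay above the section's median for Lsamp and 46 above that for Ptprd. Across the 9 regions the correlation of both on the log2 scale was -0.29, a description over 9 points of 1 library.

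Dlg2 was lowest in region 3, led by Shox2, Prkcd and Synpo2, with 694 CPM (671 to 717) against 3170 in region 8 and 2759 in region 7. That is 0.295 times the rest of the section, and 9.24% of features were called lower there. Only 16 of 649 spots of region 3 with at least 2000 counts lay above the section's median for Dlg2. The other 8 genes were not called in region 3, and Macrod2 and Cntnap2 stood at 899 and 1366 CPM there.

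Csmd1 followed regions 1 and 7 with 2693 and 2423 CPM and fell to 956 in region 5, 963 in region 6 and 517 in region 9, each a call of lower. Of all features 5.03%, 7.5% and 9.77% were called lower in those regions. Nrxn3 had 2300 CPM in region 7, 2269 in region 1 and 2170 in region 8, and in region 9 it fell to 631 CPM, 0.322 times the rest. Csmd1 and Nrxn3 were the most alike of the 36 pairs of the 9 genes over regions (r = 0.92, 9 regions), and Cntnap2 and Nrxn3 the least (r = -0.48). Lrp1b ranged from 816 CPM in region 9 to 1958 in region 7, and Csmd3 from 320 in region 9 to 833 in region 8. Macrod2 was the most even, from 587 CPM in region 5 to 1039 in region 9.

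Cntnap2 was highest in region 9, a set of 45 deep spots led by Ttr, Sostdc1 and Kl, genes of the choroid plexus, with 3386 CPM (3290 to 3484) and 2.71 times the rest, where 9.35% of features were called higher. Those spots were of more than 1 kind. After the data were seen they were divided by Ttr, the transthyretin carrier, at 5000 CPM. The 18 spots above it held 436 CPM of Cntnap2 (379 to 498), and the 27 below it 4978 (4833 to 5125). The leading genes of those 27 spots were Gpr151, Chrna3, Chrnb4 and Nwd2, of which Chrna3 and Chrnb4 encode nicotinic acetylcholine receptor subunits known from the medial habenula. Lsamp went from 632 to 4188 CPM and Macrod2 from 268 to 1455 between the same sets, while Nrxn3 stayed at 620 (552 to 694) and 637 (586 to 691). In the 18 spots rich in Ttr the 9 genes stood at 2.01 (Macrod2) to 5.75 times (Nrxn3) the receptor density.

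Region 7 was likewise divided, after the data were seen, by Prox1, a transcription factor of dentate granule cells, at 100 CPM. The 61 spots above it were led by Dsp, Maml2 and Prox1, and the 128 below it had Neurod6 and Hpca, genes of pyramidal neurons, among their leading genes. Lrp1b was higher in the spots rich in Prox1 (3189 CPM against 1210), as was Ptprd (1869 against 750.0). Cntnap2 was lower there (461 CPM against 1594), as was Nrxn3 (1101 against 3029). Lsamp had 4142 and 4518 CPM. The receptor background was 709 CPM in the first set and 373 in the second. Over the receptor density, Lrp1b therefore stood at 16.9 times in the first set and 12.2 in the second, and Ptprd at 8.99 and 6.86. Cntnap2 stood at 2.24 and 14.7 times, Nrxn3 at 7.45 and 39.0, and Lsamp at 20.6 and 42.7.

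**Figure D4:**
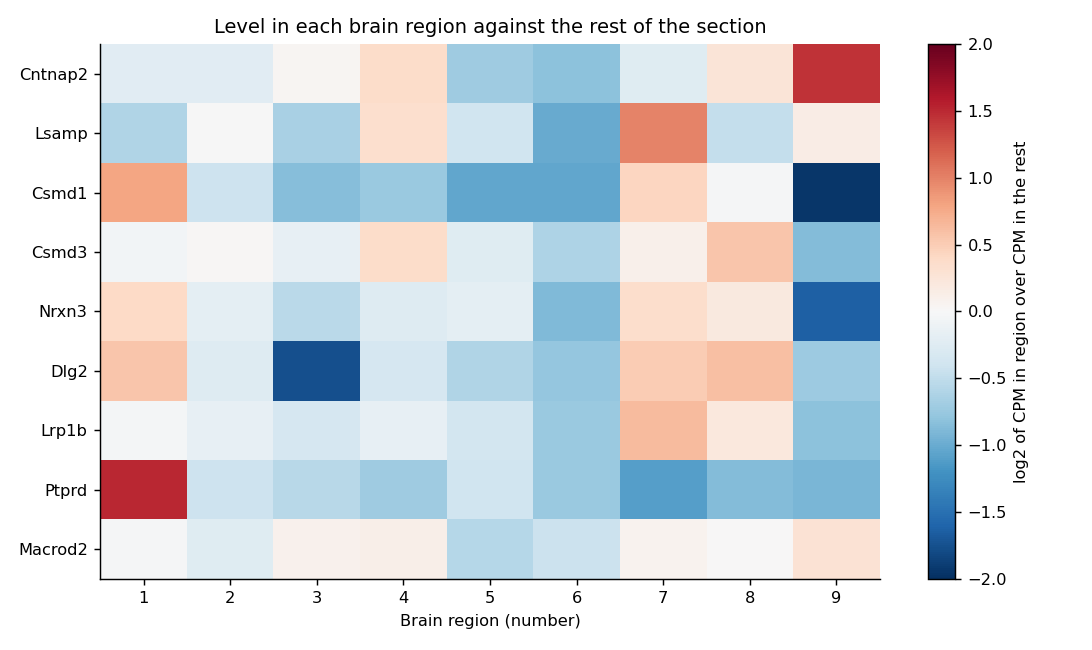
log2 of the level of each of the 9 genes (rows) in each brain region (columns, by number) over its level in the rest of the section; red is higher and blue lower. Ptprd in region 1 (2.86 times) and Cntnap2 in region 9 (2.71 times) are the strongest reds, and Csmd1 in region 9 and Dlg2 in region 3 (0.295 times) the strongest blues.

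Genes outside the lists whose profile over the 9 regions was most like that of the summed members, among 5399 of at least 20 CPM, were Fhip1b (r = 0.94), Gpm6a (0.93) and Rundc3b (0.93). For single members the nearest were Lrrc3b for Cntnap2 (0.97), Cap2 for Csmd1 (0.97), Eml6 for Lsamp (0.94), Grik2, a kainate receptor subunit, for Csmd3 (0.96), Cdk17 for Dlg2 (0.96) and Camk2b for Lrp1b (0.96). The nearest to Ptprd, Oxr1, reached 0.88. For Nrxn3 and Macrod2 they were 9530059O14Rik (0.97) and Ankrd45 (0.97). These values describe 9 regions of 1 library. The summed members had r = 0.63 with the pan-neuronal list and -0.41 with the myelin list over the same regions. Single members differed, from -0.16 (Cntnap2) to 0.81 (Nrxn3) with the pan-neuronal list. With the myelin list they ran from -0.54 (Macrod2) to 0.06 (Ptprd).

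In heart the 9 genes moved with the receptor background from region to region. Their sum was lowest in region 2 (1030 spots, led by Cox6b1, Tmem50a and Ckm) with 1413 CPM (1390 to 1437) and highest in region 4 (318 spots, led by the globin genes Hba-a1, Hbb-bs and Hbb-bt) with 4491 (4406 to 4576). In region 4 by CPM 8 of the 9 were called higher than the rest, all but Dlg2, where 33.6% of all features were. Receptor genes stood at 413 CPM in region 2 and 1698 in region 4. Per kb the 9 were therefore at 1.54 times the receptor density in region 2 (1.49 to 1.59) and 1.19 times in region 4 (1.15 to 1.23), the reverse order. Cntnap2 in region 4 had 532 CPM, at 1.08 times the receptor density. Region 5, led by the atrial genes Myl7, Sln and Myl4, had 2861 CPM of the 9 and 1.29 times.

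Dlg2 and Nrxn3 were the 2 members above 2 times the receptor density in any heart region. In region 2 they reached 2.56 and 2.43 times with 269.5 and 209 CPM, and in region 1 2.21 and 2.12 times. Csmd3 stayed between 0.970 and 1.08 times in the 5 regions and Cntnap2 between 0.987 and 1.09. Csmd1 was called lower in region 2 by CPM (101 CPM, 0.471 times the rest, with 6.21% of features called lower). It stood at 1.15 times the receptor density there, at the low end of its range of 1.15 to 1.42 over the heart regions.

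**Figure D5:**
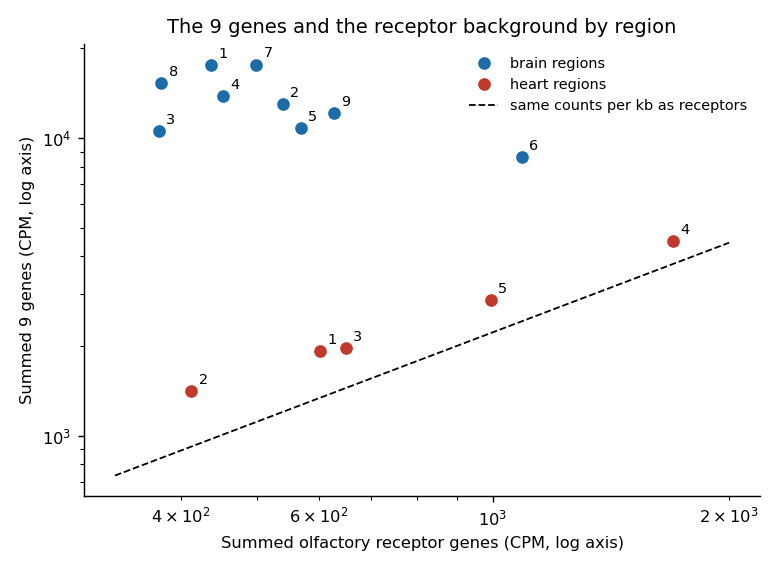
Summed level of the 9 genes against that of olfactory receptor genes, both in CPM on log axes, for each region of the brain (blue) and heart (red), numbered. The dashed line marks equal counts per kb; heart regions lie just above it, at 1.19 to 1.54 times, and brain regions at 3.56 to 18.2 times.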

How the data were processed

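The authors deposited, for each section, a matrix of whole-number counts over 40276 features and 4992 spot barcodes. Per the submitters' processing notes, STARsolo and build mm39 were used; version, annotation, merging of molecular tags, counting of introns and use of strand are not given in the sources used here. Spots needed 500 counts and 200 features, and their counts were summed and scaled to CPM. Density is counts per kb of gene span, divided by that of olfactory receptor genes (symbols starting Or and a digit); 35500 features had a span in GENCODE mouse release 21. Levels have exact Poisson intervals and ratios exact conditional binomial intervals (95%). With no count in a group, 3 counts served as floor. log2 ratios add 0.5 counts. Regions came from 2000 variable genes, 20 components, 15 neighbours and Leiden clustering at resolution 0.6 (scanpy 1.11.5, leidenalg 0.10.2, seed 1), without listed genes, receptors or structured RNA. Regions of 20 or more spots are described, a minimum lowered from 50 once region 9 had been seen. No doublet caller was run on spots. Steps were tested on simulated data. Named were all 9 genes, the 4 relatives and 4 partners with the highest CPM in each section, the 3 nearest profiles to the sum and 1 to each gene, and the 5 other genes of at least 1 Mb with the highest heart density. Other genes are named as markers, leading genes or extremes of a list, some chosen after their values were seen. The genes and lists were chosen with earlier results of these data known. Results for some named genes are not reported here. Alternatives changed scaling, spot filter, size rule, pseudocount, background, length and resolution.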

Additional observations from a re-analysis of the deposited data

Results flagged for a closer look

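Barcodes below the spot threshold enter no comparison above, and they held counts of the 9 genes beyond what a count of 0 allows. In brain 912 such barcodes had 2181 counts of the 9 in 156957, or 13896 CPM, at 4.28 times the receptor density (interval 3.73 to 4.93). In heart 1266 such barcodes had 611 in 154831, or 3946 CPM, at 1.20 times (1.03 to 1.40). Receptor genes stood at 1459 and 1479 CPM in these barcodes, above the 485 and 687 CPM of the kept spots.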

How the results depend on the processing

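No paired analysis was possible because each tissue is 1 library. All 9 genes were higher in brain under each of 7 alternatives of scaling, spot filter, weight, pseudocount and background (63 log2 ratios, 1.27 to 7.27). The spot filters and pseudocounts could hardly move the ratios (medians 2.81 to 2.82), so they say little about the direction. The value of 7.27 is Cntnap2 with the receptor density subtracted, which rests on 7.70 CPM in heart. Outside ribosomal, mitochondrial and small structured RNA 7 genes passed the size rule, the median log2 ratio was 2.26, and the highest region stood at 1.94 times the lowest in brain and 2.26 times in heart (2.04 and 3.18 on all counts). With an 8-fold rule 3 genes passed. The share of all features that passed was not taken for either setting, so these counts have no background beside them. The median log2 ratio was 2.50 with each spot weighing the same and 5.20 with the receptor density subtracted. The summed density over background in brain and heart was 12.2 and 1.45 against vomeronasal receptor genes, 4.28 and 1.20 in barcodes below the spot threshold, 17.8 and 1.56 against the median receptor gene, and 14.9 and 1.46 without the 6 receptor genes with the most counts. The last 2 settings were chosen after the data were seen. Per kb of exon it was 779 and 75.9, since exons are about 1% of these genes but a large part of receptor genes. The regional range was 2.22 in brain at resolution 1.0, and 1.86 and 3.07 in heart at 0.4 and 1.0. The cause of these shifts was not tested. Depth limited the values per spot, since 722 brain spots and 677 heart spots were too shallow for thinning.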

Other observations

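Some receptor genes stood far above their class, so the background is not the same for each of them. Or4k15 had 402 counts in brain and 172 in heart, 31.0 and 7.81 times the receptor density, and Or5m3b 152 and 1649, 2.66 and 17.0 times. Or51p1 stood at 14.7 and 5.06 times. The median receptor gene stood at 0.785 times the summed density in brain and 0.872 times in heart.

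One feature inside Dlg2, on its strand and 53.0 kb long, had no count in either section, while the 8 features on opposite strands inside the 9 genes had 1026 counts in brain and 754 in heart.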
